A study of Mus musculus with 6 samples.

Results

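Retinoic acid synthesis, binding and response were described through 9 listed genes: Aldh1a1, Aldh1a2, Aldh1a3, Crabp1, Crabp2, Rarb, Cyp26a1, Cyp26b1 and Stra6. They were listed by name, for the known role of retinoic acid in patterning the gut along its length, with earlier results of these data known. Of the 9 genes, 8 were measured among 12393 genes. Cyp26b1 had no probe set with a single gene name in the annotation used here and was not analysed here. The 8 measured genes held 10 probe sets, of which Aldh1a3 had 3, and each gene was read from its brightest probe set, judged by the mean of the 6 arrays. Levels are log2 expression values, so that a difference of 1 is a doubling, and they cannot be set against each other between genes because every probe set has its own brightness.

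RNA came from cultures of stomach or intestine cells of C57BL/6 mouse embryos at embryonic day 13.5, hybridised to 6 Affymetrix arrays in 3 groups of 2 biological replicates. The tissue had been digested with collagenase-dispase and trypsin, which reduces the endoderm, and the cells had grown for 3 days in medium with 20% fetal bovine serum. Stomach and intestine controls carried either Rosa26+/Barx1 or Bapx1+/Cre and were labelled wild type; which of the alleles a given culture carried, and how many embryos it pooled, is not given in the sources used here. The third group, here Barx1 intestine, was intestine of Rosa26+/Barx1;Bapx1+/Cre embryos, in which the Cre at the Bapx1 locus switches on BARX1, a homeodomain factor of the embryonic stomach mesenchyme, in cells with a history of Bapx1 activity.

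Retinoic acid is made from vitamin A in steps: retinol enters the cell, dehydrogenases turn it to retinal, and the ALDH1A enzymes oxidise retinal to retinoic acid. Cellular retinoic acid binding proteins carry the product inside the cell, nuclear receptors of the RAR and RXR families bind it on DNA, and CYP26 enzymes degrade it. In the embryo the balance of local synthesis and degradation sets gradients that help give the parts of the gut their identity, and some of the pathway's own genes, Rarb and Cyp26a1 among them, are classic transcriptional targets of retinoic acid.

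Array medians ran from 6.93 to 6.98. The lower quartile of an array was 4.72 to 4.76, and a level near or below it was not shown to be above background. Barx1 stood at 9.82 and 9.79 in stomach, 5.13 and 4.93 in the intestine and 8.66 and 8.79 in Barx1 intestine, which follows the labels. Of the 13 listed mesenchyme and smooth muscle markers all 13 lay above the lower quartile on every array, and of the 9 endothelial genes 3 did, with the defining Pecam1 and Cdh5 below it on all 6. Epithelial and leukocyte markers were still present. Their mean levels varied between the groups and also between replicates of a group, and their values stand with the results below.

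All 3 measured enzymes of retinoic acid synthesis were above the lower quartile on every array, and the levels of 2 of them differed between stomach and intestine. Aldh1a3 and Aldh1a1 were lower in stomach, 8.09-fold and 3.76-fold on the linear scale, and both were also lower in Barx1 intestine than in control intestine, 4.04-fold and 1.95-fold. The Barx1 intestine lay between the controls for both genes, and above the stomach. Crabp1 rose in Barx1 intestine 4.80-fold over control intestine. Rarb was 2.63-fold lower in Barx1 intestine than in stomach. Its difference between Barx1 intestine and control intestine was not called (adjusted p by limma 0.0614), nor was that between the controls (0.395). In these bulk cultures, fewer cells of a type and less RNA per cell cannot be told apart.

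In counts, 2 of the 8 genes differed between stomach and intestine at an adjusted p under 0.05, 0 higher and 2 lower in stomach, where 16.9% of all genes passed (8.86% higher and 8.09% lower). Between Barx1 intestine and intestine 3 of 8 passed, 1 higher and 2 lower, against 3.98% of all genes (1.86% higher and 2.12% lower). Between Barx1 intestine and stomach 3 of 8 passed, 2 higher and 1 lower, against 5.2% of all genes (2.56% higher and 2.64% lower). The median size of the log2 difference over the 8 genes was 0.669, 0.774 and 0.581 in these comparisons, beside 0.139, 0.108 and 0.113 over all genes. The 2 groups compared had no overlapping arrays for 7, 6 and 5 of the 8 genes, beside 64.1%, 52.4% and 58% of all genes. The 3 comparisons share arrays pairwise, so their results are not independent of each other. With 2 arrays a group the calls were easily lost: without 1 array, 2 to 4 of the 8 genes passed between stomach and intestine, 1 to 4 between Barx1 intestine and intestine, and 0 to 4 between Barx1 intestine and stomach. In the last comparison limma called 0 of the 8 without either stomach array or without Barx1 intestine replicate 1, with 4 of the 8 at an unadjusted p under 0.05 each time, and 1 without Barx1 intestine replicate 2. Over all genes the count there went from 644 to 12 and 0 without stomach replicates 1 and 2 (1906 genes at an unadjusted p under 0.05 in the latter fit), and to 5 and 113 without Barx1 intestine replicates 1 and 2.

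**Figure D1:**
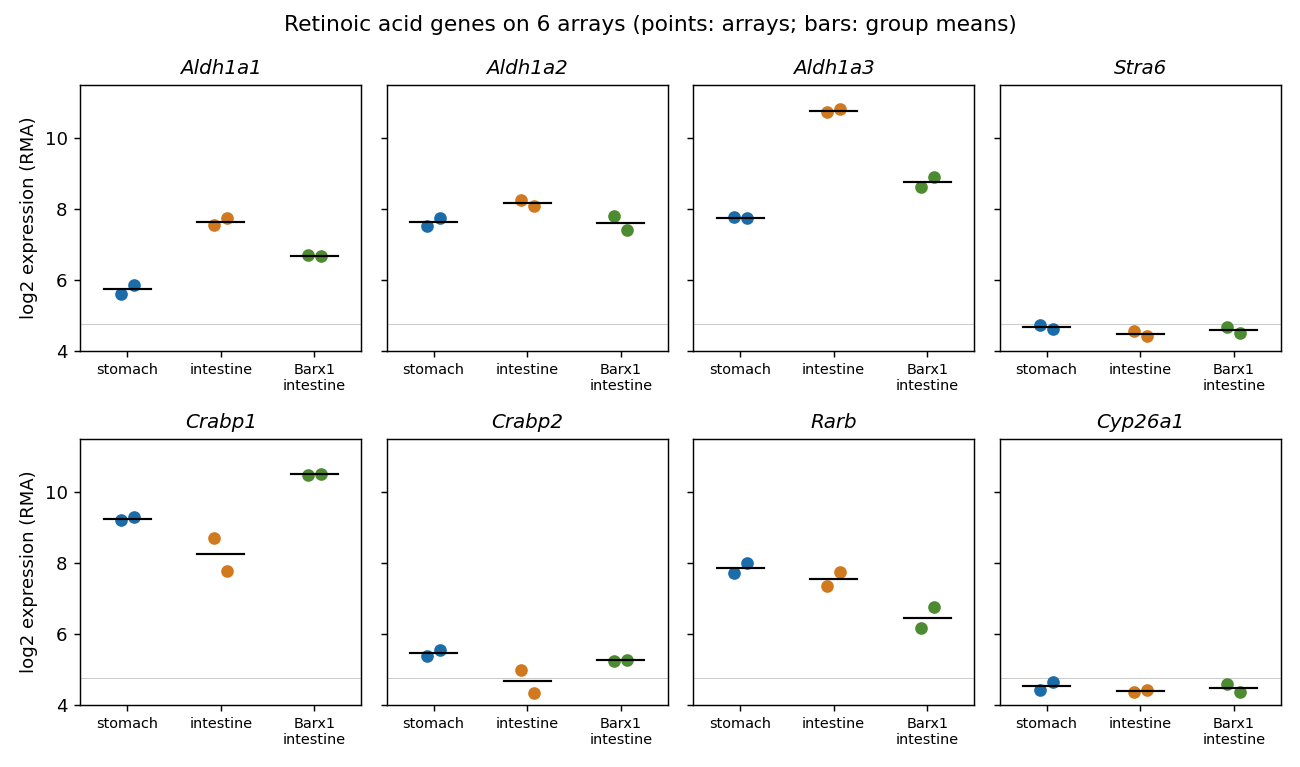
Log2 expression (RMA) of the 8 measured genes, a panel each, in stomach, intestine and Barx1 intestine; points are the 2 arrays of a group, bars are group means, and the thin grey line spans the lower quartiles of the arrays (4.72 to 4.76). Aldh1a1 and Aldh1a3 step down from intestine through Barx1 intestine to stomach, Crabp1 is highest and Rarb lowest in Barx1 intestine, and Stra6 and Cyp26a1 lie at or below the grey line.

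Stra6, the membrane receptor that takes up retinol from its plasma carrier, gave no level above background. It read 4.72 and 4.61 in stomach, 4.56 and 4.41 in the intestine and 4.68 and 4.51 in Barx1 intestine, and it exceeded its array's own lower quartile on 0 of 6 arrays. Its largest difference, stomach minus intestine, was 0.18 (95% confidence interval -0.05 to 0.41, adjusted p = 0.240). With a level this low, a change in Stra6 was not detectable.

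Aldh1a3, which encodes a retinal dehydrogenase known from the developing eye and nasal region, had the widest range of the 8 genes. It read 7.76 and 7.75 in stomach, 10.72 and 10.82 in the intestine and 8.62 and 8.89 in Barx1 intestine. All arrays of a group lay apart from those of the other groups, with the intestine highest and the stomach lowest. The stomach was lower than the intestine by a log2 difference of -3.02 (SE 0.10, adjusted p = 0.000418). Barx1 intestine was lower than intestine by -2.01 (SE 0.10, 95% confidence interval -2.26 to -1.76, adjusted p = 0.00259) and higher than stomach by 1.00 (SE 0.10, adjusted p = 0.0143). Both differences from the intestine passed without any 1 of the 6 arrays, with adjusted p up to 0.0111 for stomach and up to 0.0208 for Barx1 intestine. The difference between Barx1 intestine and stomach did not pass without stomach replicate 1 (adjusted p = 0.0965), stomach replicate 2 (0.118) or Barx1 intestine replicate 1 (0.055).

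The other probe sets of Aldh1a3 gave the same order of group means. The second brightest read 7.34 and 7.11 in stomach, 9.75 and 9.72 in the intestine and 8.10 and 8.37 in Barx1 intestine. The dimmest read 5.84 and 5.50, then 7.58 and 7.43, then 5.85 and 6.20. In a fit over all 20380 probe sets with a single gene name, all 3 were called lower in stomach than in intestine (-2.51 and -1.84 for the 2 just given) and lower in Barx1 intestine than in intestine (-1.50 and -1.48). Of all probe sets, 14.9% and 3.37% were called in these comparisons. Against stomach, Barx1 intestine was called higher by the second brightest (1.01, adjusted p = 0.0162), while the dimmest differed by 0.36 without a call (adjusted p = 0.256), beside 4.33% of all probe sets called.

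Aldh1a1, a retinal dehydrogenase of broad tissue range, followed the same order at a smaller size. It read 5.60 and 5.85 in stomach, 7.53 and 7.74 in the intestine and 6.69 and 6.66 in Barx1 intestine, and no 2 groups overlapped. The stomach was lower than the intestine by -1.91 (SE 0.11, adjusted p = 0.00173), and this passed without any 1 array (adjusted p up to 0.0171). Barx1 intestine was lower than intestine by -0.96 (SE 0.11, adjusted p = 0.0204) and higher than stomach by 0.95 (SE 0.11, adjusted p = 0.0173), so that its level stood about midway on the log2 scale. The first of these calls was lost without Barx1 intestine replicate 1 (adjusted p = 0.117), Barx1 intestine replicate 2 (0.0778), intestine replicate 2 (0.0606) or either stomach array (0.0521). The second was lost without Barx1 intestine replicate 1 (0.105), Barx1 intestine replicate 2 (0.0791), stomach replicate 1 (0.0965) or stomach replicate 2 (0.107).

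Aldh1a2, the main retinal dehydrogenase of early embryonic mesoderm and of mesothelium, varied least of the 3 enzymes. It read 7.51 and 7.74 in stomach, 8.25 and 8.07 in the intestine and 7.80 and 7.41 in Barx1 intestine. The intestine arrays were the highest and did not overlap with the others, whereas stomach and Barx1 intestine overlapped. The stomach differed from the intestine by -0.54 (95% confidence interval -0.93 to -0.15, adjusted p = 0.0686) and Barx1 intestine by -0.56 (-0.94 to -0.17, adjusted p = 0.108), neither past the threshold. The first difference passed without either Barx1 intestine array (adjusted p = 0.0493). Barx1 intestine and stomach differed by -0.02 (-0.40 to 0.37, adjusted p = 0.958). Of the 6 measured mesothelial markers 2 were called higher (Wt1 and Bnc1) and 1 lower (Msln) in stomach than in intestine, with a median difference of -0.0483. Over all genes 8.86% were called higher and 8.09% lower in that comparison. The mean of the mesothelial markers ran from 5.78 to 6.20 over the arrays, and their part in the levels of Aldh1a2 was not tested.

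The 2 cellular retinoic acid binding proteins were read next. Crabp1, a cytosolic carrier also known from neural crest and embryonic mesenchyme, read 9.22 and 9.28 in stomach, 8.71 and 7.77 in the intestine and 10.49 and 10.52 in Barx1 intestine. The groups did not overlap and Barx1 intestine was highest, but the 2 intestine arrays were 0.947 apart, the widest gap between replicates among the 8 genes. Crabp1 rose in Barx1 intestine over intestine by 2.26 (SE 0.29, 95% confidence interval 1.54 to 2.98, adjusted p = 0.0239). Barx1 intestine stood 1.25 above stomach (0.53 to 1.97, adjusted p = 0.0710) and stomach 1.01 above intestine (0.29 to 1.73, adjusted p = 0.0680), without a call.

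The Crabp1 call was lost without some of the arrays. Without a stomach array, the fit was that of only the 2 groups compared. That fit called 50 genes in all, where the main fit called 493. The rise over intestine did not pass without Barx1 intestine replicate 1 (adjusted p = 0.132), Barx1 intestine replicate 2 (0.0864) or either stomach array (0.0782). All differences passed without either intestine array, but those fits no longer held the 0.947 gap between the intestine replicates in their spread. The intestine array left was assumed to vary like the other groups, so the passes do not make the differences firmer. Stomach minus intestine was 1.48 without intestine replicate 1 and 0.54 without intestine replicate 2. Barx1 intestine minus intestine ran from 1.79 to 2.74 over the settings.

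Crabp2, which delivers retinoic acid to RAR in the nucleus, read 5.38 and 5.54 in stomach, 4.98 and 4.34 in the intestine and 5.22 and 5.27 in Barx1 intestine. The intestine arrays were lowest, and 1 of them lay below its array's lower quartile. The stomach exceeded the intestine by 0.80 (0.29 to 1.31, adjusted p = 0.0520) and Barx1 intestine by 0.59 (0.08 to 1.10, adjusted p = 0.165), neither past the threshold. The 2 intestine arrays were 0.638 apart. Both differences passed without intestine replicate 1, and the first without intestine replicate 2, but those fits no longer held that gap in their spread. Stomach minus intestine was 1.12 without intestine replicate 1 and 0.48 without intestine replicate 2. Barx1 intestine and stomach differed by -0.21 (-0.72 to 0.30, adjusted p = 0.578).

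Rarb encodes the retinoic acid receptor beta, and Cyp26a1 a cytochrome P450 that degrades retinoic acid. Both are textbook direct targets, and their promoters carry the element through which the receptors act, a direct repeat of a short receptor site with 5 bases between the copies (DR5). RefSeq promoter sequences (GRCm38.p6), 250 bases before to 50 after each start, were held for 7 of the 9 listed genes, with Aldh1a3 and Crabp2 not matched, in 11 windows. They were searched on both strands for DR5, DR2 and DR1, which differ in the 5, 2 or 1 bases between the copies. Among the listed genes Rarb and Cyp26a1 each held a DR5, and DR2 and DR1 matched in 0 of the 11 windows. Of all 32851 promoters in the table, 0.0974% held a DR5, 0.268% a DR2 and 0.222% a DR1. The 100 bases before the start of each gene are shown 5′ to 3′ on the gene's strand because they hold the repeat, which is in capitals. The Rarb stretch is chr14:16575477-16575576 on the minus strand and the Cyp26a1 stretch chr19:37697708-37697807 on the plus strand.
Rarb: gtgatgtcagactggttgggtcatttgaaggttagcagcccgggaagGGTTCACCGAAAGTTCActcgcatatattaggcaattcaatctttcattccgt
Cyp26a1: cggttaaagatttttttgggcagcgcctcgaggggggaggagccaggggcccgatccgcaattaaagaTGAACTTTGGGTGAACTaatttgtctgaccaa
The Rarb repeat lies 53 to 37 bases before the start and reads along the gene. The Cyp26a1 repeat lies 32 to 16 bases before the start on the opposite strand, where it reads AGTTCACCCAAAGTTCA. Read in the repeat's own direction, 15 of the 17 bases are identical between the genes. A match describes these letters and does not show that a receptor was bound in these cultures.

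Rarb, the receptor gene with that repeat, read 7.72 and 7.99 in stomach, 7.36 and 7.73 in the intestine and 6.18 and 6.74 in Barx1 intestine. Stomach and intestine overlapped and both Barx1 intestine arrays lay below all 4 controls. Barx1 intestine was lower than stomach by -1.39 (SE 0.22, 95% confidence interval -1.95 to -0.84, adjusted p = 0.0349). Against intestine the difference was -1.09 (SE 0.22, -1.65 to -0.53) and missed the threshold (adjusted p = 0.0614). It passed with a filter on dim genes (adjusted p = 0.0369) and with an intensity trend in the variance (0.0309). The call against stomach was lost without Barx1 intestine replicate 1 (adjusted p = 0.124), Barx1 intestine replicate 2 (0.0559), stomach replicate 1 (0.144) or stomach replicate 2 (0.209). Stomach and intestine differed by 0.31 (-0.25 to 0.86, adjusted p = 0.395).

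Cyp26a1, the degrading enzyme, gave no level above background. It read 4.41 and 4.64 in stomach, 4.34 and 4.40 in the intestine and 4.59 and 4.37 in Barx1 intestine, below its array's lower quartile on all 6 arrays. The differences were 0.15 between stomach and intestine (adjusted p = 0.384), 0.11 between Barx1 intestine and intestine (0.610) and -0.05 between Barx1 intestine and stomach (0.842). At this level the array gave no usable reading of the change in Cyp26a1.

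**Figure D2:**
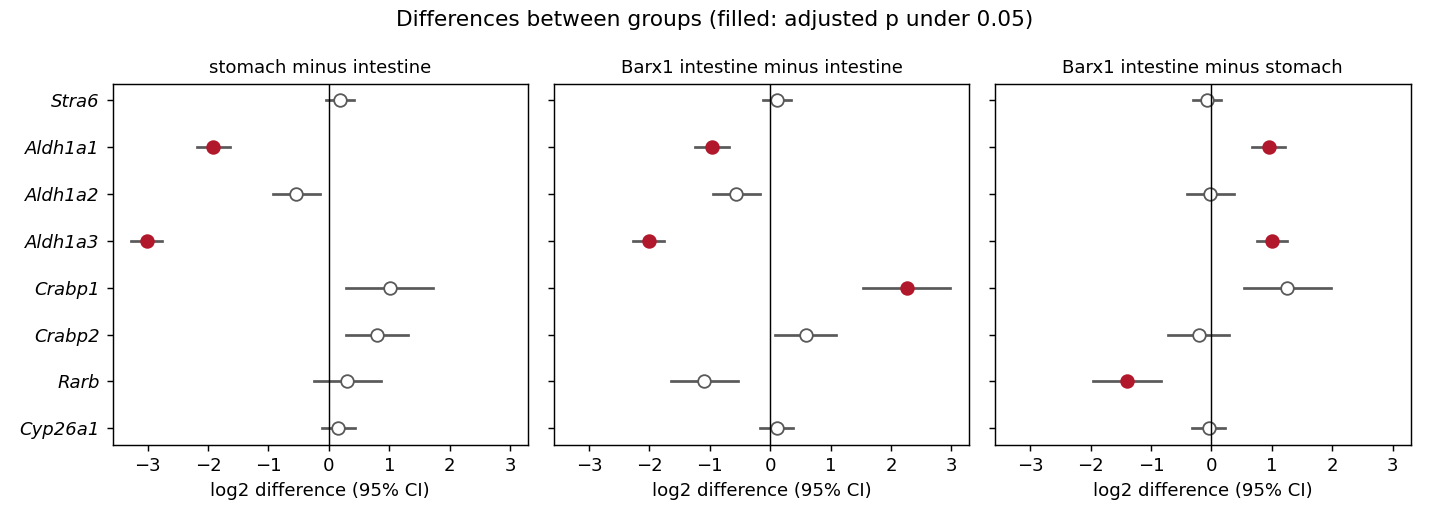
Log2 differences of the 8 genes between stomach and intestine, Barx1 intestine and intestine, and Barx1 intestine and stomach, with the 95% confidence interval of the limma fit as a line; filled points had an adjusted p under 0.05. Aldh1a1 and Aldh1a3 lie left of 0 in both comparisons with intestine and right of 0 against stomach, Crabp1 is furthest right for Barx1 intestine minus intestine, and Rarb lies left in both comparisons of Barx1 intestine.

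Further genes of retinoid metabolism and response were taken from lists of 59 genes, of which 47 were measured. In stomach 4 of the 47 were higher than in the intestine and 3 lower. In Barx1 intestine 2 were higher and 2 lower than in intestine, and 0 higher and 4 lower than in stomach. These counts stand beside 16.9%, 3.98% and 5.2% of all genes called in the same comparisons. The median differences were 0.032, 0.011 and -0.066, against 0.0194, 0.0215 and -0.000768 over all genes.

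Of the genes that handle retinol, Rdh10, which makes the retinal for embryonic retinoic acid synthesis, read 9.78 and 10.04 in stomach, 10.76 and 10.15 in the intestine and 9.62 and 9.63 in Barx1 intestine. Its intestine arrays were the highest, and Barx1 intestine differed from intestine by -0.83 (95% confidence interval -1.34 to -0.32, adjusted p = 0.0863) without a call. Dhrs3, which turns retinal back to retinol and is known to be induced by retinoic acid, read 8.63 and 9.10 in stomach, 8.51 and 8.91 in the intestine and 6.66 and 7.61 in Barx1 intestine. Both Barx1 intestine arrays lay below the 4 controls. The differences were -1.58 from intestine (-2.43 to -0.73, adjusted p = 0.0665) and -1.73 from stomach (-2.58 to -0.88, adjusted p = 0.0515), neither past the threshold. Arrays did not overlap for 52.4% and 58% of all genes in these comparisons, in either direction.

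The alcohol dehydrogenase gene Adh1 was lower in stomach than in intestine by -0.61 (adjusted p = 0.0341), near background in stomach (4.32 and 4.40) and 4.78 and 5.16 in intestine. The Adh1 call passed without intestine replicate 1 (0.0195) and was lost without stomach replicate 1 (0.161), stomach replicate 2 (0.138), intestine replicate 2 (0.0597) or either Barx1 intestine array (0.0586). Of the 15 measured genes listed for the making of retinal from retinol or carotenoids and the reverse, 6 lay at or below the lower quartile on all arrays, as did Lrat, which stores retinol as esters. Rbp4, the plasma carrier of retinol, ran from 4.67 to 5.46, and its differences did not pass (adjusted p from 0.679 to 0.887).

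The other listed receptors of the RAR and RXR families gave no call. Rara stood at a mean of 6.09, 5.82 and 5.97 in stomach, intestine and Barx1 intestine, Rarg at 6.19, 6.04 and 6.03, Rxra at 7.54, 7.57 and 7.78 and Rxrb at 8.74, 8.49 and 8.64. The difference of Rxrb between stomach and intestine was the closest to the threshold (0.24, 0.08 to 0.41, adjusted p = 0.0626). Between Barx1 intestine and stomach, where Rarb passed, Rara differed by -0.13 (-0.37 to 0.11) and Rarg by -0.16 (-0.34 to 0.03).

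Among the coregulators Nrip1, a corepressor of ligand-bound nuclear receptors that retinoic acid is known to induce, was highest in intestine. It read 8.90 and 8.89 in stomach, 9.60 and 9.69 in the intestine and 9.07 and 9.16 in Barx1 intestine, and the groups did not overlap. Nrip1 was lower in stomach by -0.75 (SE 0.06, adjusted p = 0.00413) and in Barx1 intestine by -0.53 (SE 0.06, adjusted p = 0.0222), and its second probe set gave -0.64 and -0.55. The call in Barx1 intestine held without intestine replicate 1 (adjusted p = 0.0375) and was lost without any other array (0.0658 to 0.121). Ncoa1, a coactivator, was lower in Barx1 intestine than in stomach by -0.33 (adjusted p = 0.0466), a call lost without any 1 array.

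Of 14 measured genes known to respond to retinoic acid in other settings, 4 were higher and 1 lower in stomach than in intestine, 2 higher and 1 lower in Barx1 intestine than in intestine, and 0 higher and 3 lower in Barx1 intestine than in stomach. Over all genes the shares higher and lower were 8.86% and 8.09%, 1.86% and 2.12%, and 2.56% and 2.64% in these comparisons. Nr2f1, an orphan nuclear receptor, read 10.29 and 10.46 in stomach, 6.93 and 7.38 in the intestine and 8.37 and 8.43 in Barx1 intestine (stomach minus intestine 3.22, Barx1 intestine minus intestine 1.25, adjusted p = 0.00110 and 0.0222). Meis1, a homeobox cofactor of Hox proteins, read 9.76 and 9.79, then 8.64 and 8.63, then 9.44 and 9.36 in the same order (1.13 and 0.76, adjusted p = 0.00124 and 0.00836). For both genes Barx1 intestine lay between the controls.

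Meis2 (0.79, adjusted p = 0.00966) and Nr2f2 (0.94, adjusted p = 0.00194) were higher in stomach than in intestine. Nr2f2 stood at 9.31 and 9.33 in Barx1 intestine beside 9.28 and 9.32 in intestine. Hoxb5 was lower by -0.34 in stomach (adjusted p = 0.0276) and by -0.39 in Barx1 intestine (adjusted p = 0.0446). Hoxb1 and Cdx1 lay below the lower quartile on all arrays. Without 1 array, the rise of Nr2f1 in Barx1 intestine passed only without an intestine array (adjusted p = 0.0184 and 0.0190), that of Meis1 failed without Barx1 intestine replicate 1 (0.0551), and the lower Hoxb5 in Barx1 intestine passed in 0 of 6 fits. Against intestine, the higher Meis2 of stomach was lost without either stomach array (0.0665 and 0.0792), and the lower Hoxb5 of stomach without either stomach array (0.136 and 0.150) or either intestine array (0.0780 and 0.0854).

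**Figure D3:**
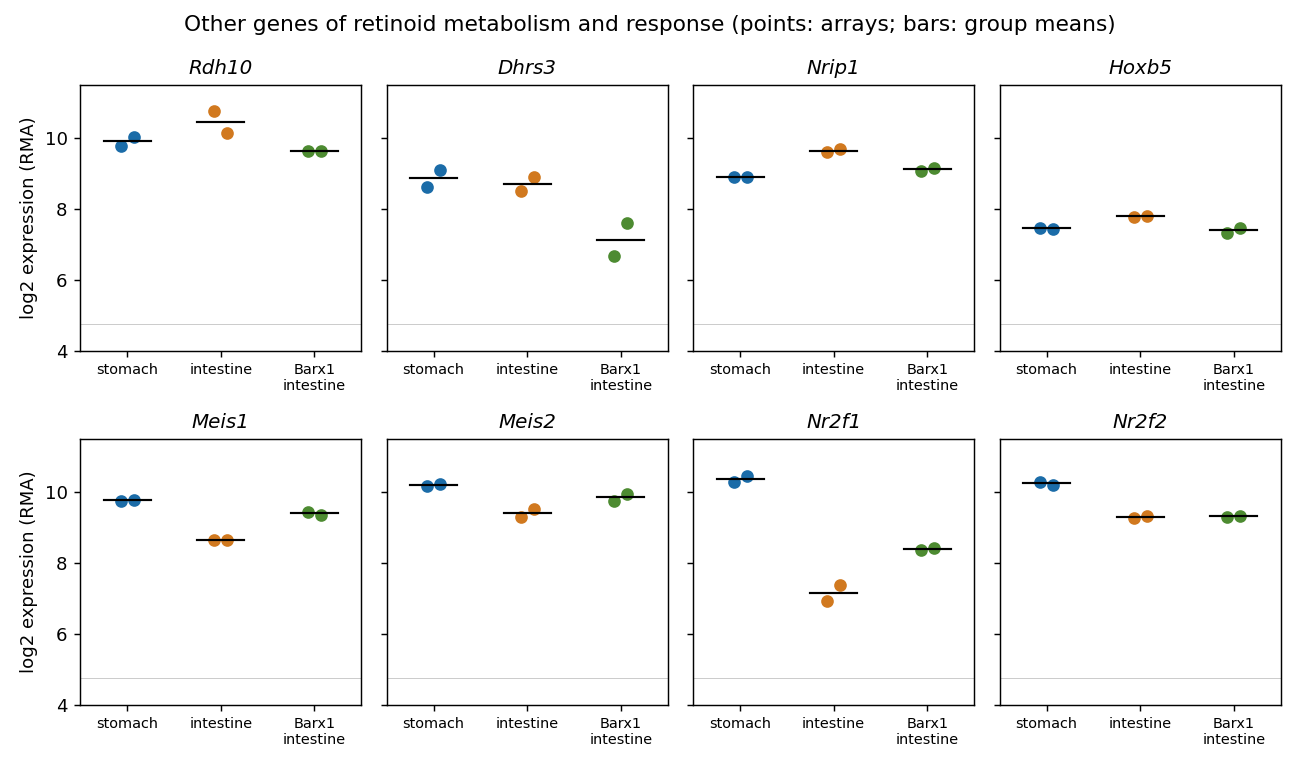
Log2 expression (RMA) of 8 further genes of retinoid metabolism and response in the 3 groups; points are the 2 arrays of a group, bars are group means, and the thin grey line spans the lower quartiles of the arrays. Rdh10 and Nrip1 are highest in intestine, Dhrs3 is lowest in Barx1 intestine, and Nr2f1 and Meis1 are highest in stomach with Barx1 intestine between the controls.

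For the 3 of the 8 genes with the widest range of group means, the nearest genes were sought by Euclidean distance between mean-centred log2 levels over the 6 arrays. Nearest to Aldh1a3 were the matrix metalloproteinase gene Mmp13 (distance 0.616), the transcript U90926 (0.728) and Mmp9 (0.820), where the median gene stood at 3.11. Nearest to Crabp1 were Rgs5, a regulator of G protein signalling known from pericytes (0.276), the homeobox gene Hoxa9 (1.03) and the imprinted gene Dlk1 (1.09), with a median of 2.36. Nearest to Aldh1a1 were Popdc2, a membrane protein of muscle (0.261), the developmental gene Mab21l2 (0.298) and Frmd4b (0.306), with a median of 1.96. Rgs5 read 10.79 and 9.80 in the intestine and 12.42 and 12.32 in Barx1 intestine, and its lower intestine array was the same as that of Crabp1. Mab21l2 read 4.71 on both stomach arrays, below their lower quartiles of 4.76 and 4.75 and so not shown to be above background. It read 6.61 and 6.60 in the intestine and 5.85 and 5.60 in Barx1 intestine, in steps like those of Aldh1a1. Such likeness follows from the search, which picked these genes for their closeness over the same 6 arrays.

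Mean levels of the marker lists of other cells also varied between the groups and between replicates, and not all in the same order. The mean of 15 epithelial genes was 6.602 and 7.255 in stomach, 8.502 and 7.633 in the intestine and 7.505 and 6.925 in Barx1 intestine. The median difference was -1.39 in stomach and -1.06 in Barx1 intestine against intestine, where 2 and 1 of the 15 were called lower, and Epcam itself read 9.22 and 7.95 on the intestine arrays. The mean of 12 macrophage and leukocyte genes was 8.56 and 8.30, 9.02 and 10.00, and 7.06 and 7.94 in the same order, with 0 and 5 of 12 called lower than in intestine. Their median difference from intestine was -1.06 in stomach and -1.9 in Barx1 intestine, with all 12 below 0 in both. The 2 intestine means of this list were 0.981 apart. Over all genes, 8.09% were called lower in stomach and 2.12% lower in Barx1 intestine than in intestine.

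The mean of 10 measured genes of enteric neural crest, glia and neurons was 6.74 and 6.65 in stomach, 7.20 and 7.24 in the intestine and 6.17 and 6.44 in Barx1 intestine, with 3 of 10 called lower in both comparisons with intestine. The mean of the mesenchyme and smooth muscle list was 11.73 and 11.80 in stomach, 11.22 and 11.30 in the intestine and 11.03 and 11.19 in Barx1 intestine. Of its 13 genes, stomach had 6 called higher against intestine, and Barx1 intestine had 6 called lower against stomach. Of the 9 endothelial genes 3 were called lower in stomach than in intestine (Pecam1, Kdr and Eng) and 1 lower in Barx1 intestine than in intestine (Pecam1). Another 2 were called higher in Barx1 intestine than in stomach (Kdr and Emcn, the first also among those 3). Pecam1 lay below the lower quartile on all 6 arrays, so its calls rest on levels not shown to be above background. For stomach against intestine 8.86% of all genes were called higher and 8.09% lower. For Barx1 intestine the shares were 1.86% and 2.12% against intestine, and 2.56% and 2.64% against stomach. No defining marker of the epithelium (Epcam, Cdh1), of leukocytes (Ptprc, Csf1r) or of glia (Sox10) was below the lower quartile on any array. The part of these cells in the results for the retinoic acid genes was not tested.

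**Figure D4:**
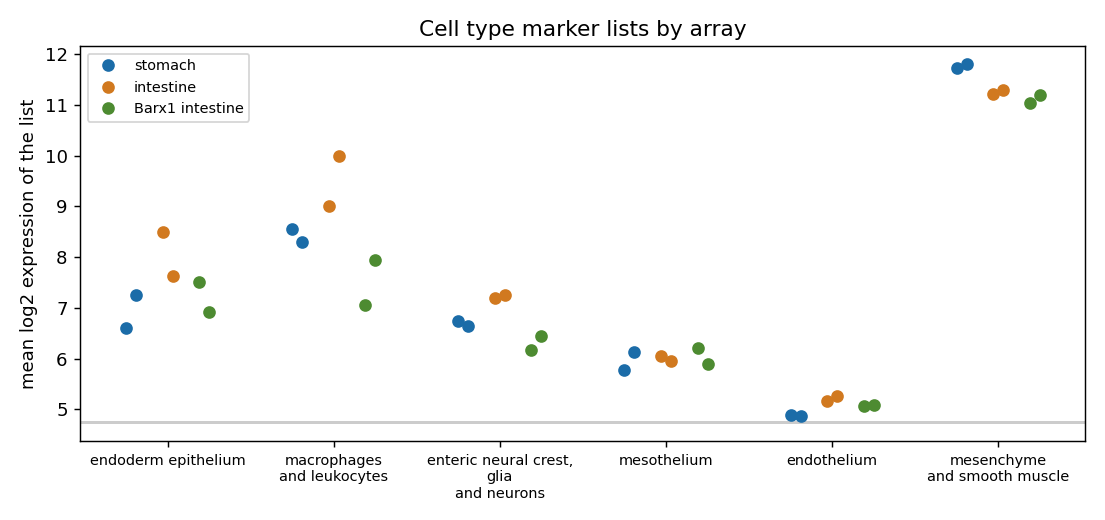
Mean log2 expression of 6 cell type marker lists on each array; points are the 2 arrays of stomach, intestine and Barx1 intestine, and the grey band spans the lower quartiles of the arrays. The epithelial, leukocyte and enteric neural lists are highest in intestine, with epithelial means of 8.502 and 7.633 there, and the endothelial list lies near the band.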

How the data were processed

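The deposited table held 22690 probe sets for 6 arrays as log2 values, summarised by the authors with RMA, per the submitters' processing notes; its version is not given in the sources used here, and the log2 scale was read from the values. RMA brings arrays to a common distribution, so a shift shared by most genes would not show. The platform annotation gave 20380 probe sets 1 gene, 691 several and 1555 none, controls aside; only the first were used, and 20351 matched the reference gene table.

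All 12393 genes, each at its probe set with the highest mean, entered 1 fit of 3 group means with limma 3.58.1 in R 4.3.3 (3 residual degrees of freedom, prior 2.58). Every adjusted p is from limma, by Benjamini-Hochberg over all genes in the fit (over all 20380 probe sets for probe set values, over the genes kept where dim genes were filtered), with a threshold of 0.05. The script was tested on simulated data. The rule named all listed genes, the further retinoid genes past the threshold with a fixed few whatever their values, defining markers, and the 3 nearest genes of 3 members. The genes and lists were chosen with earlier results of these data known. Alternatives covered a dim-gene filter, scaling, probe set choice, variance trend, the groups fitted, the replicate block and leaving out each array. Same-numbered arrays did not pair: the correlation of their deviations was -0.216 for stomach and intestine, 0.203 for Barx1 intestine and intestine and -0.0615 for Barx1 intestine and stomach. P-values measure the spread between these cultures.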

Additional observations from a re-analysis of the deposited data

How the results depend on the processing

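Of the 8 differences called among the retinoic acid genes, 90 of 112 values under other settings passed in the same direction and 22 kept the direction without passing. Leaving out an array of the group not compared gave the same fit as fitting only the 2 groups compared. The values counted here are therefore not all distinct. The 16 differences not called passed in 22 of 215 values. The 6 that changed sign, all uncalled and all without 1 array, were Cyp26a1 in Barx1 intestine against intestine (range without 1 array -0.0044 to 0.22) and, against stomach, Cyp26a1 (-0.16 to 0.067, with 0.066 as the other value above 0), Aldh1a2 (-0.21 to 0.18, with 0.099 as the other value above 0) and Stra6 (-0.16 to 0.016). Genes called between stomach and intestine numbered 4 with the dim-gene filter, which left Crabp2, Cyp26a1 and Stra6 untested, and 5 with the variance trend. Between Barx1 intestine and intestine 1 passed with only the 2 groups fitted.

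With the replicate block 2, 4 and 3 of the 8 genes passed, Rarb in Barx1 intestine against intestine being added (adjusted p = 0.0233), and all genes called numbered 1508, 267 and 337. With a crossed block, chosen after seeing the data, 4 of the 8 genes and 1588 genes in all passed between stomach and intestine.

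Over all genes the counts of 493 (Barx1 intestine against intestine) and 644 (against stomach) became 879 and 1222 with the dim-gene filter and 1037 and 1189 with the trend, and the first 50 with only its 2 groups fitted. Median centring changed the 1098 higher and 1002 lower genes of stomach to 1394 and 814. Of the further retinoid genes, 8, 9 and 1 passed between Barx1 intestine and intestine with the filter, the trend and the 2-group fit. Probe sets of the members called between stomach and intestine numbered 7 with the trend.

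Without 1 array, the counts for stomach against intestine, Barx1 intestine against intestine and Barx1 intestine against stomach ran from 281 to 1692, 50 to 466 and 0 to 727 over all genes (1906 genes at an unadjusted p under 0.05 by limma where the count was 0), from 2 to 4, 1 to 4 and 0 to 4 of the 8 genes, from 4 to 7, 0 to 3 and 0 to 5 of the further retinoid genes, and from 4 to 6, 2 to 6 and 0 to 5 of the members' probe sets. Where 0 further retinoid genes were called, 9 to 12 of 47 had an unadjusted p under 0.05. A group left with 1 array was assumed to vary like the others. The cause of these changes was not tested. Signal at or below the lower quartile limited Stra6 and Cyp26a1.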

Other observations

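Bhlhe40, a basic helix-loop-helix repressor known to be induced by retinoic acid, read 9.06 and 9.38 in stomach, 9.42 and 9.61 in the intestine and 8.87 and 8.51 in Barx1 intestine. Both Barx1 intestine arrays lay below the 4 controls, but the difference from intestine, -0.82, did not pass (adjusted p by limma 0.0570). Over all genes, 52.4% had no overlapping arrays between Barx1 intestine and intestine, and 58% between Barx1 intestine and stomach, in either direction. The share of genes below both controls was not counted. Of the 14 measured response genes, Nr2f1 and Meis1 were called higher and Hoxb5 lower in Barx1 intestine than in intestine. Bhlhe40 was on the list of response genes and was singled out after its values were seen.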
